A study of Mus musculus with 4 samples.

Results

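Hnf4a and 5 genes tied to it in liver and gut (Hnf4aos, Hnf4g, Nr5a2, Onecut2 and Prox1) were followed cell by cell in mouse lung tumours. The 6 genes were taken by symbol from the 32289 features of the deposited matrices, and each symbol matched 1 feature. They were described by cell class, by epithelial state and by treatment label, in 4 libraries.

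All mice carried p53frt, Rosa-FSF-CreERT2 and Hnf4aflox, and tumours were started by intubation with an adenovirus in which mSPC drives FlpO. The surfactant protein C promoter is active in alveolar type 2 cells. Tamoxifen, which activates CreERT2, or vehicle was injected at week 10 after intubation, and tumours were taken 2 weeks after that. For each treatment label, 1 library was made from the whole suspension and 1 after CD45-positive and CD31-positive cells had been removed on magnetic beads, which gives 4 groups of 1 library. Where 4 values are given in a row, the order is vehicle (before, after) and then tamoxifen (before, after). The vehicle is ethanol in the treatment label and corn oil in the protocol. Libraries labelled vehicle are titled KP and those labelled tamoxifen KPH, although the genotype label is the same for all 4. The number of mice or tumours behind a suspension and the age of the mice are not given in the sources used here. Libraries before and after depletion share a suspension, so the 2 tamoxifen-vehicle pairs are not replicates, and no test between treatments is possible.

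HNF4A is a nuclear receptor that binds DNA as a homodimer and drives hepatocyte and enterocyte genes such as apolipoproteins, transport proteins and clotting factors. It works in a network of factors that regulate one another, including the FOXA and ONECUT families, and is known in lung mainly from mucinous adenocarcinomas. Hnf4aos is a non-coding RNA read from the opposite strand of the Hnf4a locus. HNF4G is its paralogue and binds the same sites. NR5A2 (LRH-1) is an orphan nuclear receptor of bile acid and cholesterol metabolism. ONECUT2 is a cut-homeodomain factor of liver, pancreas and neuroendocrine lineages, and PROX1 is a homeodomain factor needed for hepatoblasts and for lymphatic endothelium.

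In GENCODE M21 (GRCm38) Hnf4a is a protein-coding gene on the plus strand of chromosome 2, from 163506808 to 163572910. Hnf4aos lies on the minus strand from 163493807 to 163541720, so that 34913 bases of the 2 genes overlap, all of them outside shared exons (0 bases of exon overlap). Their annotated 3′ ends, where this 3′ chemistry reads, are 79103 bases apart. Whether counting used strand and introns is not given in the sources used here, so reads from the overlap could be assigned to either gene. Hnf4g lies on chromosome 3 from 3508030 to 3658052, Nr5a2 on chromosome 1 from 136842571 to 136960448 and Prox1 on chromosome 1 from 190118035 to 190170714.

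Hnf4a has a pair of promoters, and the sequence before the upstream start is shown because ONECUT factors, of which Onecut2 is described here, are known regulators of this gene. The run is from the RefSeq promoter table (GRCm38.p6), plus strand, cut from the 250 bases before the RefSeq start to its longest run outside annotated exons (201 bases). Capitals mark the ONECUT letters ATCAAT, searched on both strands.
Hnf4a upstream promoter, chr2:163506607-163506807: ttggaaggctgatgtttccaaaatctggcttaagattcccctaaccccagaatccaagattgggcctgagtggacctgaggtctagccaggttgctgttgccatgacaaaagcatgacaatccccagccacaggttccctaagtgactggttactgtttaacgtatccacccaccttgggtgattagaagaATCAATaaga

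The ONECUT letters start 59 bases before the upstream RefSeq start. They were not in the 250 bases before the downstream start. Among the 32851 promoter windows of 250 bases in the table, 6.72% hold ATCAAT on either strand. The letters of an HNF4 site (CAAAGTCCA, in 0.384% of windows), a FOXA site (TGTTTAC, 3.17%) and an NR5A site (CAAGGTCA, 1.33%) were not in either Hnf4a window. Which promoter was in use cannot be read from 3′ counts.

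The libraries gave 6103 to 7366 cells each after filtering. Epithelial-like cells, named from Epcam, Cdh1, keratins and other listed markers, were 14.8% and 17.9% of cells before depletion and 93.8% and 96.1% after it, 15717 cells in all. At least 8 of the 9 epithelial markers were seen in 50% of these cells in every library, the lowest being Elf3 at 47.5% in the library labelled tamoxifen after depletion. The leukocyte gene Ptprc was at 14.0 and 16.3 CPM in the epithelial-like cells before depletion and at 0.273 and 0.396 CPM after it, and its part in the results was not tested. Levels are in CPM: UMIs of a gene summed over the cells of a unit and scaled to the UMI total of that unit, with exact 95% Poisson intervals. These intervals, and those of shares, cover counting error only.

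Hnf4a was a gene of the epithelial-like cells. Its level there was 69.6 CPM (68.7 to 70.5; 23458 UMIs in 6147 of 15717 cells), against 0.377 CPM in alveolar macrophage-like cells, 0.335 CPM in monocyte or macrophage-like cells and 0.885 CPM in T cell-like cells. Fibroblast-like cells had 8.39 CPM and endothelial-like cells 7.03 CPM. Few cells carried those counts: 22 of the 47 endothelial UMIs were in 1 cell, 45 of the 74 fibroblast UMIs were in 5 cells, and the B cell-like value rested on 11 UMIs in 1 cell. At a fixed depth of 5000 UMIs a cell, alveolar macrophage-like cells, which should lack the gene, showed a Hnf4a UMI in 0.137% (vehicle) and 0.217% (tamoxifen) of cells before depletion. Epithelial-like cells of the same libraries showed one in 12.6% and 20.9%, and without thinning in 32.2% and 44.0%. Median depth was 8803.5 and 9064 UMIs in those macrophages and 25878 and 29147 in those epithelial cells.

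The other members split between classes. Hnf4aos (8.56 CPM) and Onecut2 (33.4 CPM) were epithelial in the same way, with values below 0.4 CPM for both in T cell-like, alveolar macrophage-like, monocyte or macrophage-like, dendritic cell-like and neutrophil-like cells. Onecut2 was higher in plasma cell-like (2.69 CPM, 8 UMIs in 5 cells), ciliated-like (1.54, 1 UMI), B cell-like (1.44), fibroblast-like (1.36) and endothelial-like cells (1.35). Hnf4aos was at 0.748 CPM in endothelial-like, 0.576 in B cell-like and 0.567 in fibroblast-like cells. NK cell-like cells had 0 UMIs of either, which allows up to 3.22 CPM. Nr5a2 was the reverse: 153 UMIs in 109 of 606 endothelial-like cells gave 22.9 CPM (19.4 to 26.8), while 15717 epithelial-like cells held 27 UMIs (0.0801 CPM). Endothelial Nr5a2 was even over libraries, at 23.0, 18.7, 25.8 and 24.1 CPM, with overlapping intervals. No cell carried more than 5 of these UMIs. CD31 depletion acts on this class, so the endothelial-like cells after depletion are those the beads left.

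Prox1 was also highest in endothelial-like cells, at 14.8 CPM (12.0 to 18.0; 99 UMIs in 41 cells), but unevenly. The library labelled vehicle before depletion had 30.3 CPM and the other libraries 4.98, 6.59 and 8.78 CPM. One cell held 22 UMIs and 5 cells held 58. Of the 606 endothelial-like cells, 8 had UMIs of at least 3 of 6 lymphatic markers (Lyve1, Flt4, Pdpn, Mmrn1, Ccl21a, Reln), and those 8 cells carried 37 of the 99 Prox1 UMIs (37.4%) and 1 of the 153 Nr5a2 UMIs. Alveolar macrophage-like cells had 1.46 CPM of Prox1, 58 UMIs spread over 47 cells, close to the 1.36 CPM of epithelial-like cells (458 UMIs in 293 cells). T cell-like (1.40 CPM), fibroblast-like (1.36 CPM) and B cell-like cells (1.15 CPM) were near these values, and monocyte or macrophage-like cells lower (0.309 CPM). Hnf4g was almost absent: 93 UMIs in 50 epithelial-like cells (0.276 CPM), 1 UMI each in endothelial-like and fibroblast-like cells, and 0 in the immune classes.

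**Figure D1:**
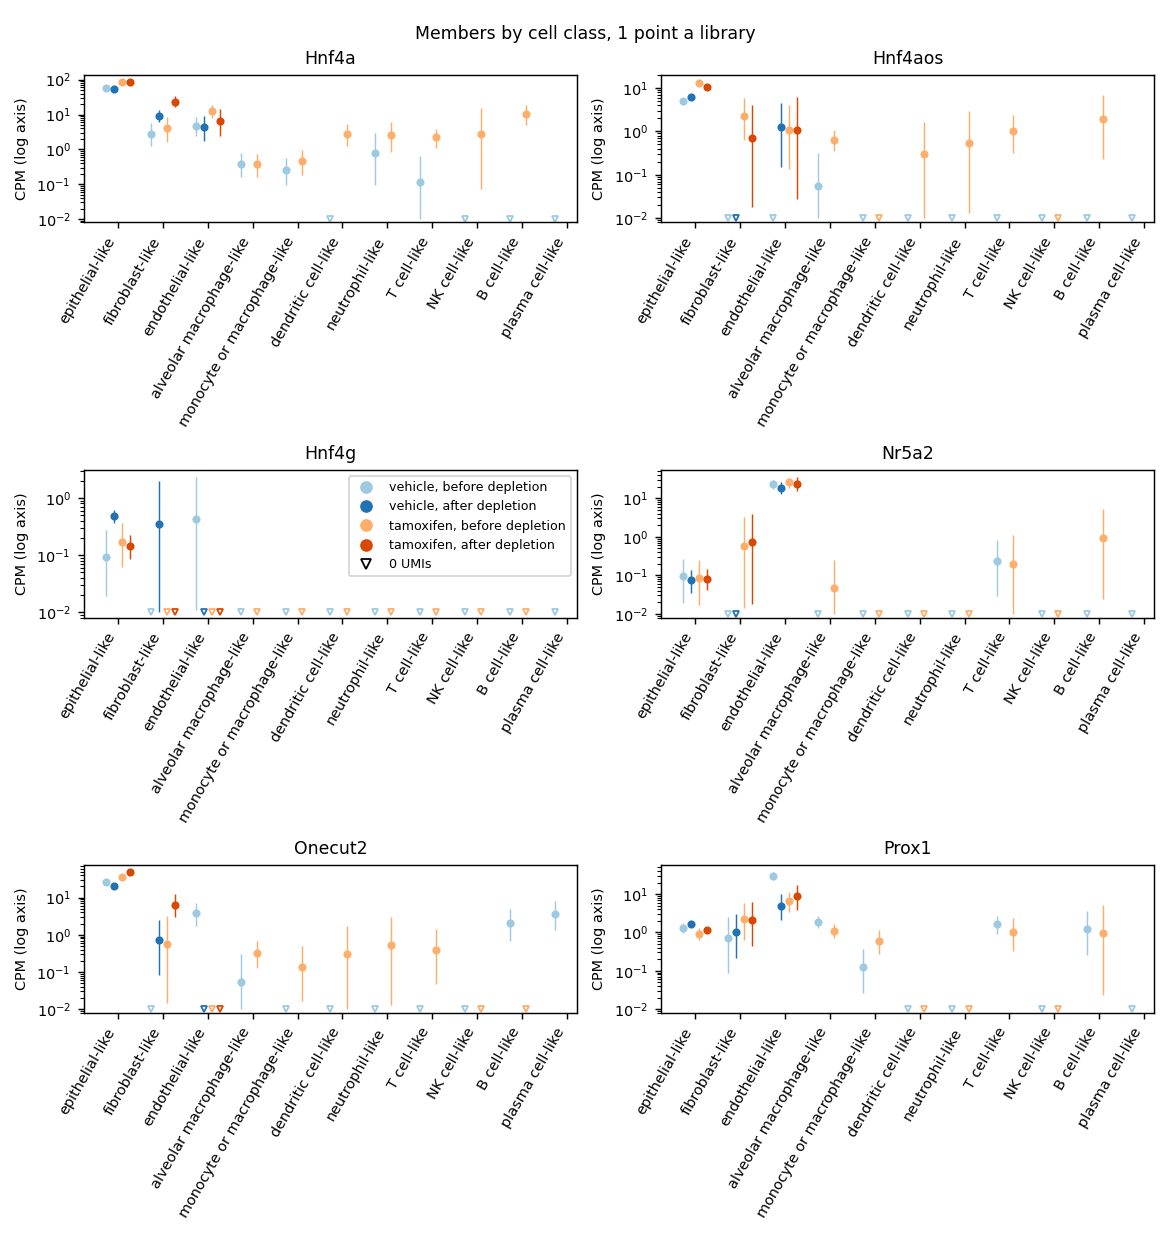
Levels of the 6 members (CPM, log axis) by cell class, 1 point a library for units of at least 50 cells, bars are 95% Poisson intervals and open triangles mark 0 UMIs. Hnf4a, Hnf4aos and Onecut2 are highest in epithelial-like cells, Nr5a2 and Prox1 in endothelial-like cells, where Nr5a2 lies between 18.7 and 25.8 CPM.

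The targeted gene comes first in the comparison of treatments. Hnf4a in epithelial-like cells was 56.5 CPM in the library labelled vehicle before depletion, 55.1 after it, 86.0 in the library labelled tamoxifen before depletion and 83.1 after it. Both tamoxifen-labelled libraries were therefore above both vehicle-labelled ones. The log2 ratio of tamoxifen over vehicle, on the log2(CPM + 1) scale, was 0.60 before depletion (0.61 without the pseudocount, 95% counting interval 0.52 to 0.69) and 0.58 after it (0.59, 0.55 to 0.64). Which exons are floxed is not given in the labels, and 3′ counts from outside a deleted stretch would not show its loss, so this level does not check the deletion, and directions below are those of the labels.

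Known HNF4A target genes had the opposite direction. Of 25 listed targets of liver and intestine, 24 were in the files. In each pair, 10 had a library at 10 CPM or more. All 10 had lower values in both pairs in the tamoxifen-labelled library, as 40.4% of the 9040 genes considered did, and 6 of them were 2-fold or more lower in each pair, where 0.896% of genes considered were. Ttr, the thyroid hormone carrier, had 45.5 and 58.5 CPM under the vehicle label against 2.91 and 5.93 CPM under tamoxifen. Apoc2, the activator of lipoprotein lipase, had 14.5 and 11.9 CPM against 0.763 and 0.732 CPM. Rbp4, the retinol carrier, had the highest level of the list, 364 and 473 CPM against 173 and 193 CPM. Gc (vitamin D-binding protein) and the gut genes Vil1 (a brush border actin-binding protein) and Lgals4 (a galectin) made up the 6. The list's median log2 ratio was -1.19 before and -1.34 after depletion, beside -0.04 and 0.01 for all genes considered. Apob, with ratios of -0.06 and -0.04, was the smallest of the 10. Among targets under 10 CPM, a pair had intervals above 0 before and after depletion: Ahsg, a liver glycoprotein, at 0.281 and 0.427 CPM with vehicle against 4.47 and 3.31 CPM with tamoxifen, and Apoa2, an HDL apolipoprotein, at 1.53 and 1.97 CPM against 2.83 and 2.81 CPM. More of the targets under 10 CPM had intervals below 0 before and after depletion: Apom, Agt, F2, Fga, Ambp, Fabp1 and Muc13. The targets were compared over all epithelial-like cells and not within epithelial states. The state led by Ttr (state 5 below), with the highest summed hepatic list, was 11.4% and 18.2% of vehicle cells. It was 1.37% and 1.74% of tamoxifen cells, and its part in these ratios was not tested. The list was chosen with results of these libraries known and is no independent evidence of its direction.

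Hnf4a, Hnf4aos and Onecut2 reached 10 CPM in each pair, and none of them was at least 2-fold higher in both pairs, where 0.387% of genes considered were. Hnf4g, Nr5a2 and Prox1 were below the 10 CPM minimum and could not be called. Of all genes considered, 98 (1.08%) had log2 ratios at or above those of Hnf4a in both pairs. Hnf4aos was at 5.03 and 6.19 CPM with vehicle against 12.9 and 10.7 CPM with tamoxifen, log2 ratios of 1.21 and 0.70 (without the pseudocount 1.36, 1.10 to 1.63, and 0.78, 0.66 to 0.91). Onecut2 was at 25.9 and 19.9 CPM with vehicle against 36.2 and 48.2 CPM with tamoxifen, ratios of 0.47 before depletion and 1.24 after it. The value before depletion was 0.08 when cells were taken by a gate on each cell instead of by cluster. Prox1 was at 1.31 and 1.69 CPM with vehicle against 0.905 and 1.16 CPM with tamoxifen, with intervals without the pseudocount of -1.25 to 0.16 before depletion, which spans 0, and -0.85 to -0.24 after it. For Hnf4g the 65 UMIs of the vehicle library after depletion stand against 19 of the tamoxifen one (0.479 and 0.142 CPM), and before depletion there were 3 and 6. Nr5a2 had 3, 10, 3 and 11 epithelial UMIs, too few to show a difference at this depth. The libraries also differed in the epithelial states they held, and levels weighted by state are given below.

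The rest of the network was mostly level where it reached 10 CPM. Of 28 listed factors, 13 reached 10 CPM, 0 were 2-fold apart in both pairs, 7 were higher and 3 lower in both, and the median ratios were 0.04 and 0.09. Of all genes considered, 35.1% were higher and 40.4% lower in both. Nr2f2 (COUP-TFII), an orphan receptor that shares DNA sites with HNF4A, was nearest to 2-fold lower, at 36.8 and 30.7 CPM against 18.1 and 16.3 CPM (ratios -0.98 and -0.87). Foxa3, a forkhead factor of liver and gut, was at 15.4 and 16.9 CPM against 11.9 and 11.3 CPM. Foxa2, another forkhead factor, had ratios of 0.22 and 0.35. Foxa1, Nr1h3, Nr2f6, Cebpa, Gata6, Hhex, Ppargc1a, Esrra and Nkx2-1, the lung lineage factor, had ratios between -0.18 and 0.18. Below the minimum, Nr1i2, the pregnane X receptor, had 31 and 172 UMIs with vehicle against 4 and 26 with tamoxifen.

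**Figure D2:**
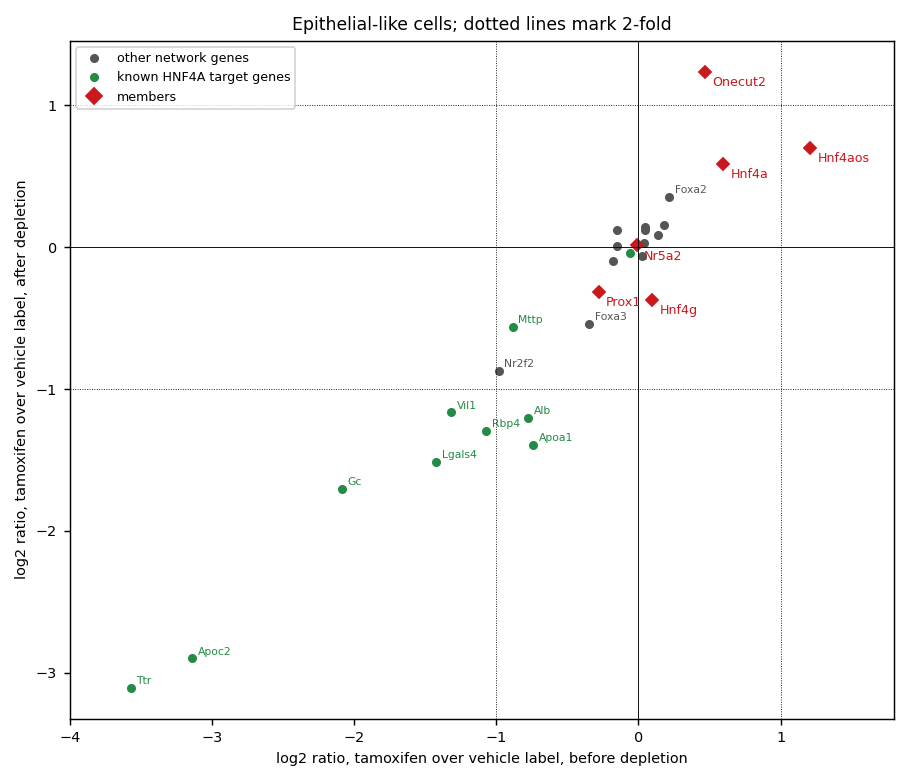
Log2 ratios of tamoxifen over vehicle labels, log2(CPM + 1) scale, before depletion (x axis) and after depletion (y axis), for the 6 members, and for 12 of the 13 other network genes and the 10 known targets that reached 10 CPM. Dotted lines mark 2-fold, and names of network genes and targets within 0.3 of 0 on both axes are left off. Hnf4a, Hnf4aos and Onecut2 are in the upper right and the targets in the lower left, with Ttr at -3.57 and -3.10.

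Epithelial-like cells were divided into 16 states by clustering from which the 6 members and the network list had been left out. No member therefore entered the division into states. The clustering of all cells, from which the epithelial-like cells were taken, did not leave these genes out, and its part was not tested. States are numbered by size and named by leading genes. Hnf4a ranged from 1.70 CPM in state 1 (Lyz1, Cbr2, Lyz2; 3081 cells), whose summed alveolar type 2 markers are the highest of all states, to 218 CPM in state 11 (Cd177, Sdk1, Tmeff2; 468 cells), pooled over libraries. The pooled value of state 11 joins 112 CPM in the vehicle and 332 CPM in the tamoxifen library after depletion, beside 1.56 and 2.92 CPM in state 1. Pooled values weigh the libraries by their share of a state, and those shares differ. State 4 (Bpifa1, Dcpp1, Dlk1) followed at 134 CPM, state 2 (Pyy, Procr, Sprr1a) at 104 CPM, state 14 (Inhba, Npy, Vim) at 91.9 CPM, state 5 (Ttr, Agr2, Adgrl3) at 79.9 CPM and state 13 (Chil3, Ccl6, Il1b) at 79.7 CPM. State 13 is led by macrophage genes. It was 9.71% (vehicle) and 10.1% (tamoxifen) of epithelial-like cells before depletion and 1.40% and 0.593% after it. The cause of that difference was not tested. State 11 has the lowest median depth of the 16, 8862 UMIs. The cycling state 8 (Ube2c, Cdc20, Mki67), with 56.5 CPM, and state 6 (Mcpt2, Tpsab1, Mcpt1), with 55.9 CPM, were in the middle. States 15 (Ecrg4, Cxcl2, Chn2), 3 (Bex2, Bex4, Dpyd), 7 (Rtkn2, Cym, Hopx) and 12 (Magi2, Stra8, Grip1) lay between 42.2 and 30.7 CPM. States 16 (Iigp1, Ly6i, H2-Q7), 9 (Cyp2b10, Sec14l3, Serpinb9) and 10 (Dcn, Plppr1, Stra8) were low, at 9.22, 8.60 and 3.56 CPM. In this order 11 of the 15 pairs of neighbours overlapped in the range of their libraries and 5 in their counting intervals. These ranges join vehicle and tamoxifen libraries, and states 15 and 12 have 1 library each, so they are no replicate spread. The order of neighbouring states is therefore not settled.

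Onecut2 (chromosome 18, 64340020 to 64400987, plus strand) had another order. State 14 led at 410 CPM, with 2782 UMIs in 183 of its 206 cells, followed by state 2 at 116 CPM, state 13 at 50.7 CPM, state 4 at 20.2 CPM and state 11 at 18.1 CPM. The other 11 states were below 6 CPM. State 14 had the lowest Nkx2-1 of all states (31.6 CPM) and the lowest summed alveolar type 2 markers. Most of its cells came from a cluster of all cells that has Onecut2 among its 10 leading genes. All 9 epithelial markers were seen in that cluster, but mesothelial markers scored highest in it. State 5 shows the clearest split between the factors: Hnf4a at 79.9 CPM with Onecut2 at 1.18 CPM. Prox1 was highest in states 14, 11 and 5, at 6.34, 4.08 and 3.46 CPM, and 0 UMIs were found in states 9, 10, 15 and 16. Hnf4g was mainly in state 5, with 50 of 93 UMIs in 25 of 1440 cells. State 5, where Hnf4g and Prox1 are above the epithelial mean, also has the highest summed hepatic list (1559 CPM), a list that holds Ttr, one of its leading genes.

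Hnf4aos followed Hnf4a. For every 100 UMIs of Hnf4a there were 8.89, 11.2, 15.01 and 12.8 UMIs of Hnf4aos. Over the states with at least 100 UMIs of both genes together the pooled figure ran from 9.35 in state 8 to 16.5 in state 7. Over 43 units (a state in a library, at least 50 cells), Pearson's r of log2(CPM + 1) between Hnf4a and Hnf4aos was 0.95 and Spearman's rho 0.95. With Onecut2 these were 0.65 and 0.81, with Prox1 0.60 and 0.78, and with Nkx2-1 -0.41 and -0.56. Onecut2 and Nkx2-1 gave -0.70 and -0.64. Units of one library share its depth and units of one state its cells' program, so these describe the pattern only.

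Among 12049 genes, those most like Hnf4a over the 43 units were B4galt6 (r 0.94), a lactosylceramide synthase, Fmnl2, a formin, Palld, an actin-bundling protein, Marcks, a protein kinase C substrate, and Tpbg, the oncofetal antigen 5T4, the last 4 at 0.91. Hnf4aos shared Fmnl2, Marcks and Tpbg with it and added Pdgfd, a platelet-derived growth factor, and Il1rl2, the interleukin 36 receptor. Onecut2 was most like Igfbp4, an IGF-binding protein, Klhl2, D1Ertd622e, Slc4a11 and Tnfrsf22 (r 0.88 to 0.87). Prox1 was most like Adgrl3, a latrophilin receptor, Epha5, an ephrin receptor, Nkain2, Rbfox1, a splicing factor, and Mical3 (r 0.84 to 0.79).

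**Figure D3:**
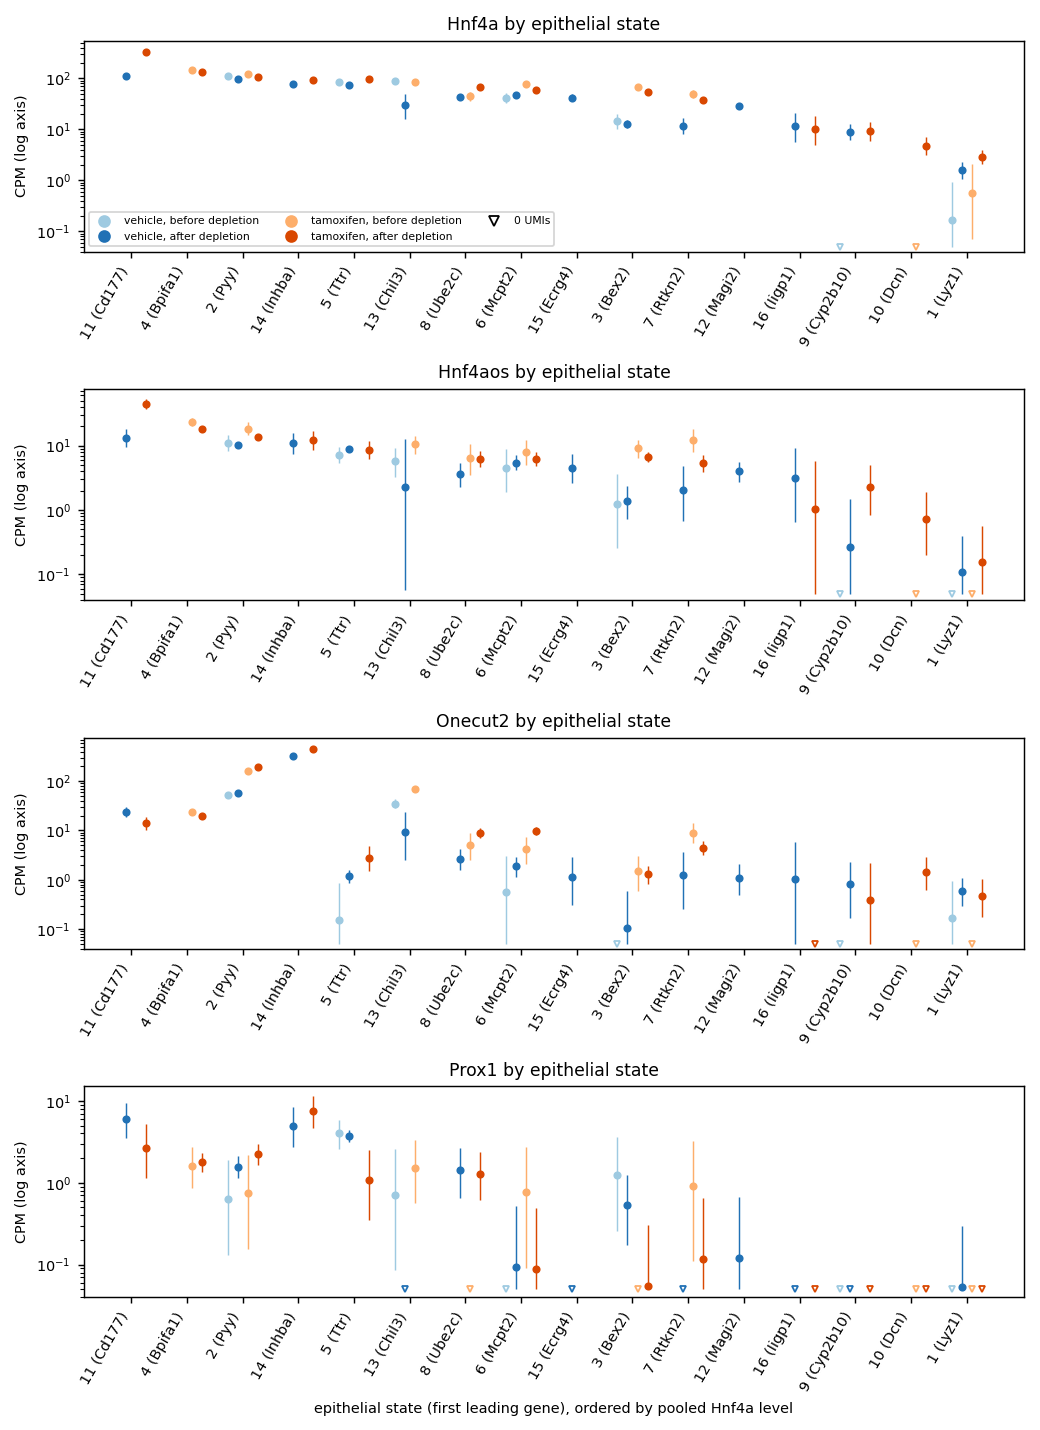
Levels of Hnf4a, Hnf4aos, Onecut2 and Prox1 (CPM, log axis) in each epithelial state, 1 point a library for units of at least 50 cells, with 95% Poisson bars and open triangles for 0 UMIs, states ordered by pooled Hnf4a. Hnf4a and Hnf4aos are lower together from left to right, whereas Onecut2 peaks in state 14 (after depletion 327 CPM with vehicle and 454 CPM with tamoxifen) and state 2.

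**Figure D4:**
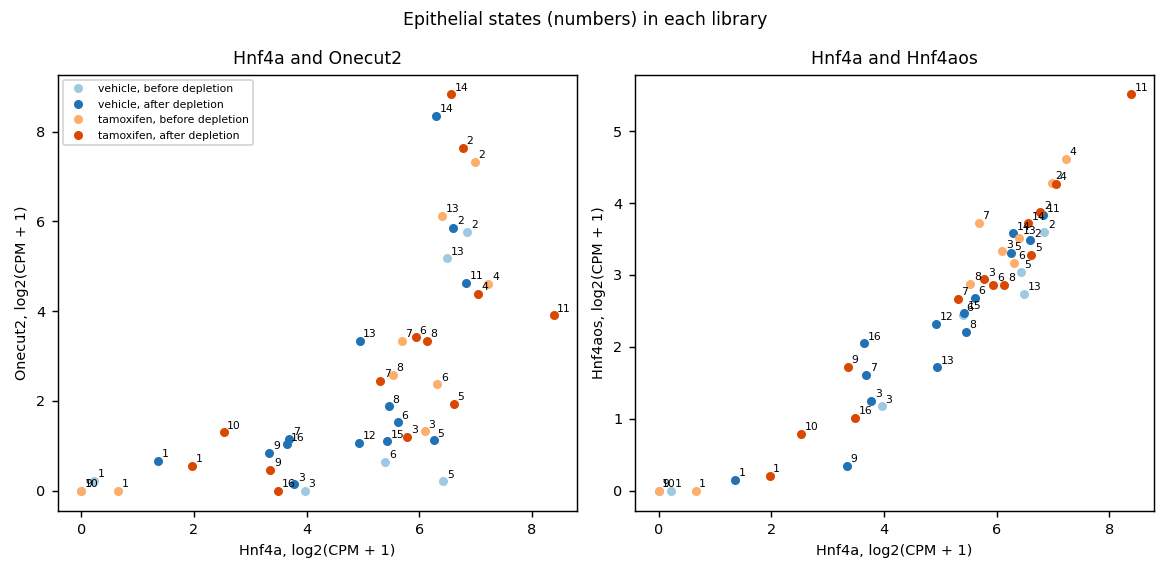
Onecut2 (left) and Hnf4aos (right) against Hnf4a, log2(CPM + 1), 43 points, each a state in a library, coloured by library and numbered by state. Hnf4aos lies along 1 line (r 0.95), whereas states 5 and 3 have Hnf4a with little Onecut2 and state 14 has the most Onecut2.

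Treatment labels differ in which states they hold, so the levels were also compared within states. State 4 was 98.1% tamoxifen-labelled cells and state 7 80.6%, while state 5 was 9.58%, state 12 1.11% and state 15 4.44%. With the vehicle libraries' own levels weighted by the states of the tamoxifen libraries, Hnf4a would be 41.8 CPM before and 62.7 CPM after depletion, against 86.0 and 83.1 CPM measured. These weighted values lean on few cells: state 4, with 16.3% and 19.97% of the tamoxifen cells, has 5 and 25 vehicle cells. Within states of at least 50 cells in both libraries, the Hnf4a ratio had an interval above 0 in 9 of 11 states after depletion and 2 of 5 before it, and below 0 in none of these 16 comparisons.

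State 3 had the largest Hnf4a ratios of the states compared in each pair. Its levels were 14.6 and 12.7 CPM with vehicle against 67.6 and 54.1 CPM with tamoxifen, ratios of 2.13 before and 2.01 after depletion (without the pseudocount, intervals of 1.70 to 2.76 and 1.82 to 2.38). At 5000 UMIs a cell, 6.33% and 4.67% of its vehicle cells and 22.7% and 19.3% of its tamoxifen cells had a Hnf4a UMI. After depletion state 11 was at 112 CPM with vehicle and 332 CPM with tamoxifen, and state 7 at 11.9 and 38.6 CPM. State 2 differed little, at 114 and 96.1 CPM with vehicle against 125 and 109 CPM with tamoxifen, and only its interval after depletion was above 0. State 13 had 88.8 and 83.6 CPM before depletion, an interval that spans 0. State 9 and state 16 showed no difference beyond counting error after depletion.

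Onecut2 differed most in level in state 2. There it had 53.3 and 56.9 CPM with vehicle against 160 and 199 CPM with tamoxifen, ratios of 1.57 and 1.79, with every tamoxifen value above every vehicle value. Hnf4a in the same cells had ratios of 0.13 and 0.17. In state 14 after depletion Onecut2 was at 327 CPM with vehicle and 454 CPM with tamoxifen. Vehicle levels in the states of the tamoxifen libraries give 13.6 and 16.9 CPM of Onecut2, against 36.2 and 48.2 CPM measured, with the same few vehicle cells in state 4. After depletion its interval was above 0 in 7 of 11 states and below 0 in state 11, which had 23.8 CPM with vehicle and 14.0 CPM with tamoxifen, while the Hnf4a ratio in state 11 was 1.56. Hnf4aos had intervals above 0 in 6 of 11 states after depletion and 3 of 5 before it. Weighted by the states of the tamoxifen libraries, vehicle levels of Prox1 give 0.663 CPM before and 0.782 CPM after depletion. The measured tamoxifen values were 0.905 and 1.16 CPM. For Hnf4g the weighted values are 0.0083 and 0.124 CPM, against 0.170 and 0.142 CPM measured. With this weighting, which has the same few vehicle cells in state 4, neither gene is lower with tamoxifen. The Hnf4g value before depletion rests on 3 vehicle UMIs. In single states lower values remained. Prox1 in state 5 after depletion was 3.72 CPM with vehicle (136 UMIs) and 1.09 CPM with tamoxifen (5 UMIs), an interval of -3.42 to -0.52. Hnf4g there was 47 UMIs with vehicle and 0 with tamoxifen, where 0 UMIs in the 123 tamoxifen cells allow up to 0.652 CPM (3 counts). Prox1 in state 3 after depletion had 5 UMIs with vehicle and 1 with tamoxifen, an interval of -8.85 to -0.13. In the other states compared, Prox1 intervals spanned 0 where one could be given.

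Co-detection with Hnf4a was measured in epithelial-like cells thinned to 5000 UMIs, which leaves out 29 to 419 cells a library. Onecut2 was detected in 11.7%, 12.0%, 11.9% and 14.8% of cells with a Hnf4a UMI, and in 2.54%, 2.73%, 4.73% and 6.30% of cells without one. After depletion 122 cells with vehicle and 216 with tamoxifen had both, where independence gives 43.6 and 119. The odds ratios were 5.08, 4.86, 2.71 and 2.59. Combined within states (Mantel-Haenszel) they were 1.71, 2.55, 1.38 and 1.62, lower in each library. The value of 2.71 was not stable to thinning: at 10000 UMIs the same library gave 7.85.

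Hnf4aos was detected in 7.21%, 8.06%, 16.4% and 11.5% of cells with a Hnf4a UMI and in 0.578%, 1.56%, 2.60% and 2.66% of cells without. The odds ratios were 13.4, 5.52, 7.36 and 4.76, and 8.85, 3.03, 3.61 and 2.65 within states. In the tamoxifen library before depletion the value was 4.05 at 2000 UMIs and 6.45 at 10000, below the 6.64 and 7.85 of Onecut2 there, so the members are not ranked by it. The Hnf4aos level in the thinned cells of the tamoxifen library after depletion was 5.04 CPM in cells with 0 Hnf4a UMIs, 20.5 CPM with 1 and 47.4 CPM with 2 or more. For Onecut2 the same steps were 37.2, 65.7 and 73.7, and in the vehicle library after depletion 12.9, 39.8 and 75.2. Prox1 was co-detected in 14 and 12 cells after depletion, with odds ratios of 3.19 and 3.11, and 1.60 and 1.52 within states. Before depletion it was seen with Hnf4a in 1 and 2 cells. Hnf4g and Nr5a2 were too sparse for co-detection to be read: at this depth a single random thinning left 14 cells with a Hnf4g UMI in the vehicle library after depletion and another left 9.

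Among the rest of the network named here, intervals of the odds ratio with Hnf4a were above 1 in all 4 libraries for Foxa3 and for Hhex, a homeodomain factor of the liver bud, and below 1 in all 4 for Cebpa, a bZIP factor of liver and alveolar cells. The odds ratios of Foxa3 were 4.12, 2.89, 2.23 and 1.54 (2.02, 1.58, 1.87 and 1.196 within states). Those of Hhex were 1.96, 1.38, 1.83 and 1.38 (1.18, 0.957, 1.26 and 0.944 within states), and those of Cebpa 0.554, 0.748, 0.716 and 0.786 (0.741, 0.916, 0.842 and 0.893 within states). Nkx2-1 had 0.71, 0.67, 0.61 and 0.76, the first with an interval (0.465 to 1.09) that spans 1. Its values within states were 1.08, 0.88, 0.88 and 0.91.

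**Figure D5:**
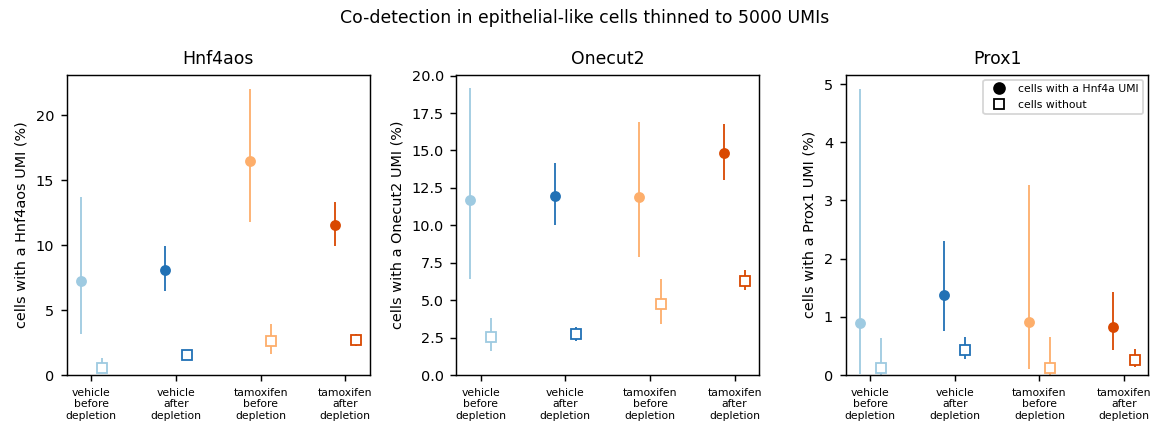
Share of epithelial-like cells with a UMI of Hnf4aos, Onecut2 or Prox1 (percent, thinned to 5000 UMIs) among cells with a Hnf4a UMI (filled circles) and without (open squares), in each library, with 95% Clopper-Pearson bars. The filled points are above the open ones in each library, for Onecut2 at 11.7% to 14.8% against 2.54% to 6.30%.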

How the data were processed

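Single-cell RNA was counted in 4 libraries with 3′ chemistry. The matrices, as deposited by the authors, are raw UMI counts of genes in cell barcodes (92644997 to 144994771 UMIs a library), made with Cell Ranger 7.0.1 per the file headers and 7.2.0 on mm10 per the submitters' processing notes. A barcode was kept as a cell if it had 200 genes or more and no more than 20% mitochondrial counts. Scrublet's own cutoff marked 185, 1, 93 and 0 doublets, under 0.5% in the 2 libraries after depletion, so cells above a score of 0.25 were removed (214, 114, 124 and 145). Barcodes shared by 2 libraries numbered 9 to 17. Cells were clustered with scanpy 1.11.5 (2000 variable genes, 40 components, Leiden resolution 1, and 0.8 for states) and named from fixed markers. The naming rule was changed after the clusters were seen, to take the first class in score order that met its conditions, which named 1 cluster monocyte or macrophage-like, although erythroid markers scored highest in it, and 1, with Onecut2 among its leading genes, epithelial-like, although mesothelial markers scored highest in it. A cluster of 103 cells with low UMI counts and one of 10 stay unnamed. Levels are CPM of summed counts, ratios use a pseudocount of 1 CPM, and a gene was called if 1 library of each pair reached 10 CPM and it was 2-fold apart the same way in both pairs. Of 32289 features 32235 matched GENCODE M21, and all 6 members did. Genes printed are the 6 members, listed network genes at 10 CPM or more, listed genes 2-fold apart, the 5 most like each member, and 3 leading genes a state. Nr1i2, Ppara, Rxra, Creb3l3, Apob and the named targets under 10 CPM, Ahsg and Apoa2 among them, were picked after their values were seen. So was the co-detection of Foxa3, Hhex, Cebpa and Nkx2-1. The statistics were tested on simulated data that held counting error only. Variation between libraries was not simulated, so these tests do not cover it. TMM scaling used edgeR 4.0.16. The members and all lists were chosen with earlier results of these data known. An allele in the genotype label and some listed genes are not reported here.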

Additional observations from a re-analysis of the deposited data

Results flagged for a closer look

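Onecut2 differed in direction between epithelial states after depletion: its log2 ratio of tamoxifen over vehicle was -0.73 in state 11 and 1.89 in state 6, with counting intervals on opposite sides of 0. The difference itself was not tested, since each value compares 1 library with 1 library.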

How the results depend on the processing

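With 1 library a group, no replicate could be left out, and no paired analysis was possible because no group has a second replicate. The Hnf4a ratio stayed above 0 in all 20 alternative values, between 0.45 and 0.90. Averaging each cell's CPM gave 0.86 before and 0.77 after depletion, the mean over states 0.90 and 0.78, leaving out the state of highest Lyz1 0.45 and 0.52, and a gate on each cell 0.78 before depletion. Genes 2-fold higher numbered 35, and 13 by the mean over states and 11 at a minimum of 50 CPM. Genes 2-fold lower numbered 81, and 47 by cell means, 16 by the mean over states, 156 with no minimum and 19 at 50 CPM. The Onecut2 odds ratio with Hnf4a, in vehicle before and after and tamoxifen before and after depletion, was 1.71, 2.55, 1.38 and 1.62 over states. At 2000 UMIs it was 2.89 with vehicle after, 6.64 with tamoxifen before and 1.89 with tamoxifen after depletion. For tamoxifen before depletion it was 7.85 at 10000 UMIs and 4.73 with no doublet filter. The cause was not tested. Hnf4aos and Onecut2 ratios kept their sign in all 20 values each. The Hnf4g and Prox1 ratios kept it in 18 of 20. The highest Hnf4a level of a state was 138 CPM at resolution 0.4 and 445 CPM at 1.2. Counting the unnamed low-UMI cluster as epithelial-like, chosen after seeing the data, gave Hnf4a ratios of 0.59 in both pairs. Depth limits Hnf4g, Nr5a2 and Prox1, each under 2 CPM in epithelial-like cells.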
